A study of Tradescantia spathacea with 6 samples.

Results

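The 200 assembled genes described here were the steadiest moderately expressed genes in the leaves of Tradescantia spathacea, a monocot ornamental whose leaves are purple underneath. Leaves came from plants grown for 2 years in full sunlight (100%, FL) or at 30% of full sunlight (low light, LL), with 3 RNA-seq libraries per condition. By its title, the study concerned a trade-off in strong light: photoprotection by anthocyanin pigments on one side, and the capacity for photosynthesis on the other. The labels give leaf tissue and the light level, and name no plant, harvest day or batch, so differences between replicates may be technical. The members were chosen on the deposited counts of all 6 libraries. Of 91987 genes, 4070 had a mean of 50 to under 500 CPM (a gene's count scaled to a common library total). Counts were divided by median-of-ratios size factors, which set the typical gene to the same level in every library. The 200 genes of this range with the lowest coefficient of variation (CV, the SD over the mean) across the 6 scaled libraries were taken. The label of a stable group therefore restates the choice. Levels, CVs and light differences of these genes are descriptions: where a test over the whole table covers them, its count is printed and nothing is read from it.

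Leaves that develop in strong light are usually thicker, carry more photoprotective pigment and invest less in light harvesting than shade leaves, and many transcripts change with them. Against this, genes for basic cell functions tend to be held nearly constant. In plants, transcripts of actin, ubiquitin, elongation factors and phosphatase subunits often serve as internal references, because a measured change in any gene is read against something assumed constant. The table pairs its identifiers with no gene name or sequence. Which of these functions, if any, the 200 genes carry is therefore not known from the data used here, and the genes are called by their assembler identifiers. No leaf marker or sequence could be looked up for the same reason. Some identifiers may be fragments, near-identical copies or antisense transcripts, among which reads can be split.

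Total counts were 14748349 to 15958899 per library, and a member had 50.3 to 477 CPM. The CV of the members ran from 1.64% to 6.57%, with a median of 5.47%, where the median of all 4070 genes of the range was 17.4%. Counting reads alone would give the members a median CV of 2.90%. In 126 of the 200 members the CV was under 2 times its counting value, which held for 3.49% of the range. In 11 members, the only ones in the range, the CV lay below its counting value. The choice by low CV fixes these shares. The members were found at most levels of the range: 134 of 2521 genes (5.32%) from 50 to under 100 CPM, 54 of 1098 (4.92%) from 100 to under 200 CPM and 12 of 451 (2.66%) from 200 CPM. Counting error was smallest in that top class, at a median CV of 1.62%, yet its median CV over libraries was 19.6%, against 16.9% in the lowest class.

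**Figure D1:**
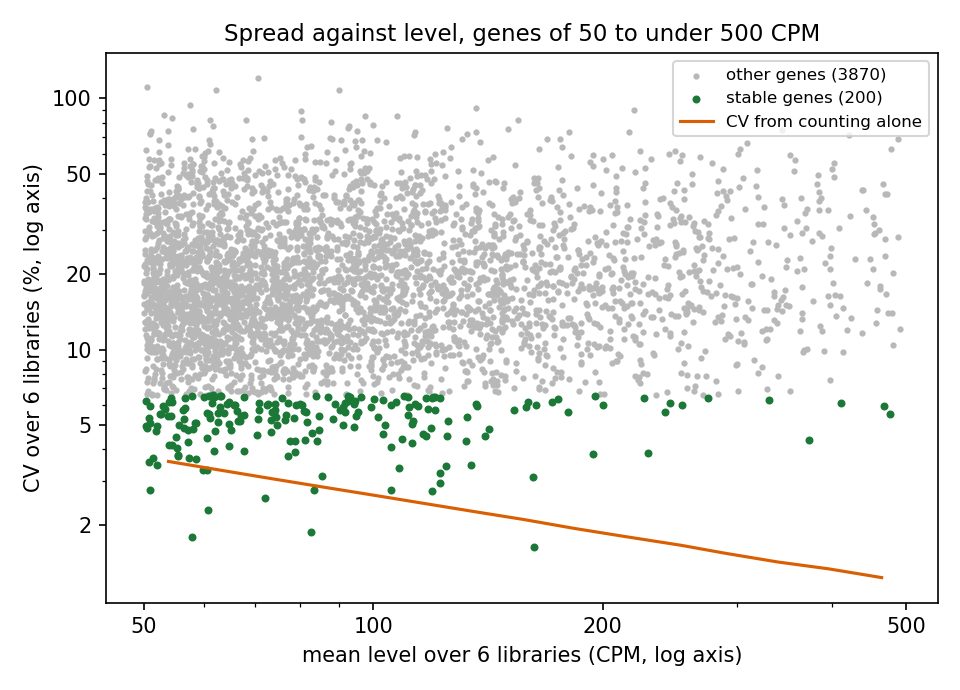
Each point is a gene of 50 to under 500 CPM, with its mean level over 6 libraries (CPM, log axis) across and its CV over the 6 libraries (percent, log axis) upwards; the 200 stable genes are green, the other genes grey, and the line is the median CV that counting alone gives. The stable genes form the lower edge of the cloud, up to a CV of 6.57%, and most of them lie above the counting line.

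The steadiest gene was TRINITY_DN5215_c0_g1, with a CV of 1.64% around a mean of 162.6 CPM. Full sunlight replicates 1 to 3 gave 2404, 2381 and 2353 scaled counts of it, and low light replicates 1 to 3 gave 2451, 2409 and 2455. All 3 full sunlight values lay below the low light values, by a log2 difference of means of only -0.04. TRINITY_DN1709_c0_g1, the second, had scaled counts of 871, 834 and 871 in full sunlight and 853, 841 and 852 in low light, which overlap. TRINITY_DN3652_c0_g1 had 1223, 1225 and 1271 in full sunlight against 1217, 1217 and 1204. Here the full sunlight values lay just above all low light values, with a log2 difference of 0.03.

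The next members in order were TRINITY_DN2276_c0_g1 (CV 2.30%), TRINITY_DN924_c0_g1 (2.56%), TRINITY_DN13519_c0_g1 (2.74%), TRINITY_DN8420_c0_g1 (2.75%), TRINITY_DN4193_c0_g1 (2.77%), TRINITY_DN4973_c0_g1 (2.77%) and TRINITY_DN14451_c0_g1 (2.94%). Their log2 light differences in scaled counts ran from -0.01 to 0.05. These 10 genes ranged from 51.0 to 162.6 CPM, where the members as a whole reached 477 CPM.

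The cutoff falls in a dense part of the distribution. TRINITY_DN5999_c0_g1 and TRINITY_DN14150_c0_g2, the last inside, had CVs of 6.56% and 6.57%. TRINITY_DN4387_c0_g1 and TRINITY_DN25220_c0_g2, the first outside, had 6.57% and 6.59%. The 200 genes ranked next reached a CV of 8.12%. The member with the highest level, TRINITY_DN11733_c0_g1, had 477 CPM, with 6886, 6755 and 7152 scaled counts in full sunlight and 7829, 6933 and 6896 in low light. The lowest, TRINITY_DN3433_c0_g1, had 50.3 CPM, with 722, 780 and 711 against 758, 795 and 709. In both genes the 2 conditions overlapped. These levels are shares of counts and are not divided by gene length.

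The first question for these genes is how far the light conditions still differed within them. A low CV over all 6 libraries bounds that difference, and the log2 ratio of full sunlight to low light ran from -0.14 to 0.15, with a median of 0.0047. In the whole range of 4070 genes it ran from -4.24 to 2.87, with a median of -0.06. Members with values above 0 numbered 107, and 93 lay below 0, against 1854 and 2216 genes of the range. The difference between conditions made up a median of 15.6% of a member's sum of squares, against 57.3% over the range. The median CV within full sunlight was 4.70% and within low light 4.58%, and the choice by low CV over all 6 libraries limits both. Over the range these medians were 11.8% and 10.3%.

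The members at the ends of this span were separated by light condition in scaled counts. TRINITY_DN2124_c0_g1 had 1415, 1406 and 1427 in full sunlight and 1256, 1253 and 1326 in low light, and TRINITY_DN8121_c0_g1 had 3957, 4057 and 3811 against 3539, 3628 and 3519. Both had a log2 ratio of 0.15, with the full sunlight libraries on top. TRINITY_DN3882_c0_g1 had 1491, 1585 and 1568 in full sunlight and 1776, 1730 and 1628 in low light. TRINITY_DN5950_c0_g1 had 5990, 5485 and 5946 against 6544, 6287 and 6334. These 2 genes had a log2 ratio of -0.14, with the low light libraries on top.

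In all, 29 members had conditions that did not overlap, 14 with full sunlight higher and 15 with it lower. Over the range this held for 51.8% of genes. By edgeR's quasi-likelihood test with Benjamini-Hochberg adjustment, 15.4% of the 40084 genes tested and 27.9% of the 4070 genes of the range were called at an adjusted p under 0.05. These numbers, 6173 and 1135 genes, dropped to 2374 and 486 when full sunlight replicate 3 was left out, and to 3792 and 788 when it was replicate 1 of that group. Leaving out low light replicate 1 gave 2711 and 559, replicate 2 gave 4557 and 914, and replicate 3 gave 2544 and 536. Without full sunlight replicate 2 the numbers rose instead, to 8976 and 1520. None of the 200 members was called, none had an unadjusted p under 0.05, and DESeq2 gave the same count of 0. The rule used these counts, so nothing is read from that number. The median standard error of a member's log2 difference in the edgeR fit, 0.13, was just under the widest difference among them.

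**Figure D2:**
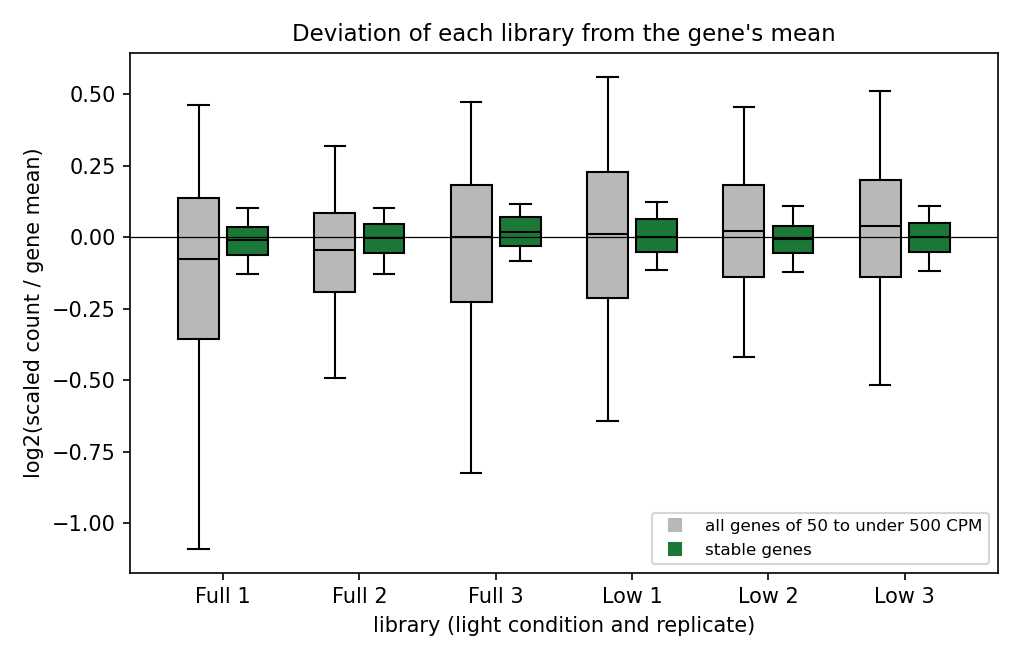
For each library (across; full sunlight or low light with replicate number), boxes show log2 of the scaled count over the gene's mean, with the median, the quartiles and whiskers from the 5th to the 95th percentile; grey is all 4070 genes of the range and green the 200 stable genes. The SD was 0.508 for the range and 0.0692 for the stable genes in full sunlight replicate 1, and 0.270 and 0.0702 in replicate 2.

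Within the members, the SD of log2 deviations was 0.0653 to 0.0749 in every library. The choice by low CV over these 6 libraries bounds each of these values. Nothing is therefore read from their evenness or from their contrast with the range. Over the range the SD was 0.508 in full sunlight replicate 1, 0.411 in replicate 3, 0.270 in replicate 2 and 0.275 to 0.377 in low light. The largest number of members had their highest value in full sunlight replicate 3 (52) and in low light replicate 1 (45), against 23 to 29 in each other library. The lowest value fell in full sunlight replicate 3 for 17 members and in each of the other libraries for 32 to 39. The median deviation in full sunlight replicate 3 was 0.019, against -0.010 to 0.0017 in the other 5.

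The steadiness of these genes is relative to the size factors. As a share of all counts, every one of the 200 members had a higher mean in full sunlight. The log2 ratio in CPM ran from 0.05 to 0.34 with a median of 0.20, which is a ratio of 1.04 to 1.27 with a median of 1.15. The median over all genes tested by edgeR was also 0.20. Since members were chosen as flat after division by the size factors, the choice itself places their CPM ratios near the ratio of the size factors per library total, which was 1.15, and nothing is read from the match. The 200 genes together took up 2.21%, 2.03% and 2.11% of the 3 full sunlight libraries, in replicate order, and 1.83%, 1.83% and 1.88% of the 3 low light libraries. The means were 2.12% ± 0.0941 (SD, n = 3) and 1.85% ± 0.0292, and every full sunlight library lay above every low light library.

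Gene by gene, 136 members had all full sunlight libraries above all low light libraries in CPM, and 0 the reverse. Over the range 36% of genes were higher in full sunlight in this way, and 19.1% lower. TRINITY_DN1709_c0_g1, flat in scaled counts, had 66.2, 58.0 and 61.8 CPM in full sunlight and 53.0, 52.7 and 54.6 in low light, which no longer overlap. TRINITY_DN3882_c0_g1, the member with the lowest ratio in scaled counts, had 113, 110 and 111 CPM against 110, 108 and 104, where the ranges met and the log2 ratio was 0.05.

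**Figure D3:**
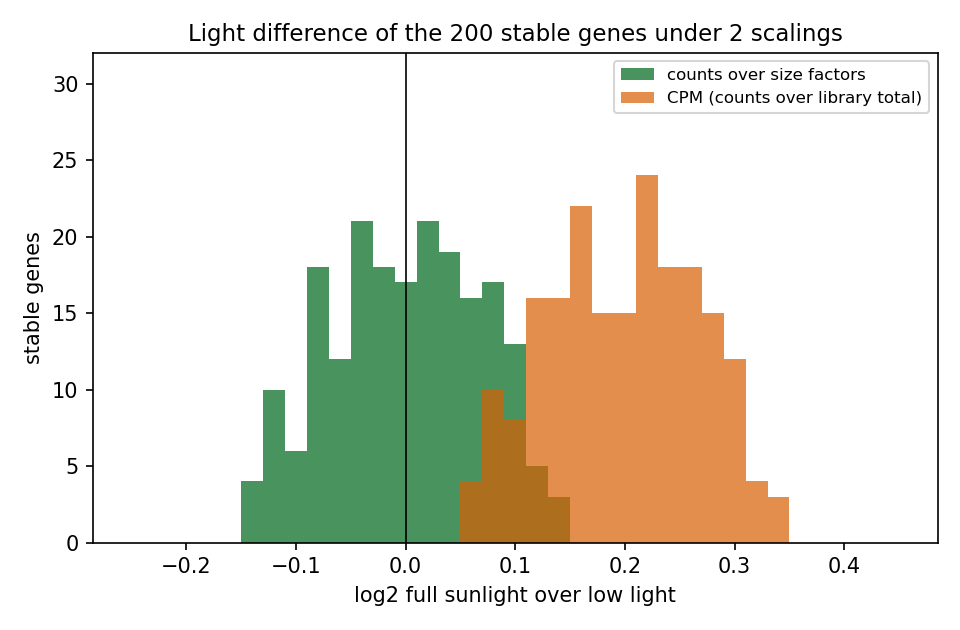
Histogram of the log2 ratio of full sunlight to low light (across) for the 200 stable genes (number of genes upwards), with counts divided by size factors in green and as CPM in orange. The green values run from -0.14 to 0.15 around 0, and the orange values from 0.05 to 0.34, all to the right of 0.

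The most abundant transcripts had a lower mean share of counts in full sunlight. The 100 genes of highest mean CPM, none of them a member, took up 13.9% ± 2.32 of full sunlight counts (SD, n = 3), and 19.7% ± 1.33 of low light counts. With the counts of these 100 genes taken out of the library totals, the median log2 ratio of the members was 0.10 in place of 0.20, with single genes from -0.05 to 0.24. With the 1000 most abundant genes taken out, 23 of them members, it was 0.07. Whether the amount of RNA per cell or per leaf differed between the light conditions was not tested, and in such counts a constant amount in a changing total cannot be told apart from the reverse.

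A different set of genes is steadiest in CPM. The same rule run on CPM gave 200 genes of which 31 were among the members. That set had a median log2 light ratio of -0.0042 in CPM and of -0.20 in scaled counts. With TMM factors (trimmed mean of M values), the scaling of the edgeR fit, 192 of the 200 were the same, and the median log2 ratio of the members was 0.0081.

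The second question is whether the steadiness holds in a library that played no part in the choice. The rule was therefore run on 5 libraries and the sixth was compared with their mean. In the library left out, the log2 deviations of the 200 genes so chosen had an SD of 0.247, 0.165 and 0.146 when it was full sunlight replicate 1, 2 or 3. With low light replicate 1, 2 or 3 left out, the SD was 0.179, 0.186 and 0.154. In the 5 libraries used for the choice, the SD was 0.0599 to 0.0636, so the spread in the unused library was 2.30 to 4.08 times as wide. Part of that gap is built in. The 200 genes were picked for the lowest CV in those same 5 libraries, which makes their spread there low by choice. The unused library is also compared with a mean that does not contain it. Counting alone would give 0.0440 to 0.0497.

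The genes so chosen were still tighter than the others. Over all genes of the range, the SD in the library left out was 0.319 to 0.584, which is 1.77 to 3.28 times that of the chosen genes. Within 10% of the mean of the other libraries (a log2 deviation of at most log2 of 1.1, either way) were 106 to 136 of the 200 chosen genes, or 53% to 68%, against 26.3% to 43.2% of the range. Within 25%, read the same way, were 172 to 194 of the 200. The fewest were again in full sunlight replicate 1.

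Which genes were chosen also depended on the libraries. Of the 200 members, 124 were chosen again without full sunlight replicate 1, 144 without replicate 2 and 148 without replicate 3. Without low light replicates 1 to 3, the numbers were 141, 129 and 145. In all 6 runs 84 members were chosen, and 1 member was chosen in none. Of the 10 members with the lowest CV, 9 were chosen in every run and the exception, TRINITY_DN4193_c0_g1, in 5 runs. With 5 libraries left after each omission, these runs overlap in most of their data.

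**Figure D4:**
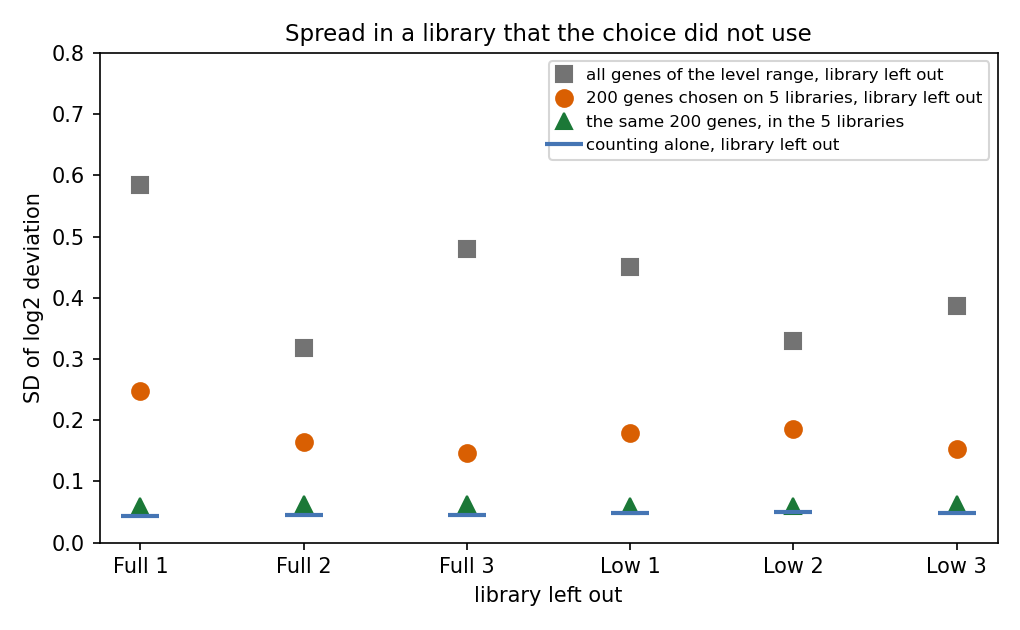
For each library left out (across), points show the SD of log2 deviations (upwards): grey squares are all genes of the level range in that library, orange circles the 200 genes chosen on the other 5 libraries in the library left out, green triangles the same 200 genes in the 5 libraries, and dashes the value from counting alone. The orange circles lie between 0.146 and 0.247, above the green triangles at 0.0599 to 0.0636 and below the grey squares at 0.319 to 0.584.

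The rule used counts only, so the length to which a gene's reads were assigned is a readout of its own. RSEM divides the count of a gene by an effective length that is averaged over its transcripts by their abundance. The ratio of the deposited count to the deposited FPKM (fragments scaled to gene length and library total) gives that length back, if the library total is the sum of the count column. It can change when reads are divided differently among the transcripts of a gene, and it also carried an offset common to each library, described with the calls. What lay behind a shift was not tested. For the members this implied length had a median of 1498 bases, from 146.4 bases in TRINITY_DN10788_c0_g1 to 4776 in TRINITY_DN9423_c0_g1. The median over the range was 1463 bases. Lengths under 500 bases were found for 12 members (6%) and for 8.03% of the range.

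In most members the implied length differed between conditions by less than 10%. Its CV over the 6 libraries had a median of 2.95% among members and 2.60% over the range. TRINITY_DN9423_c0_g1 had 4789, 4769 and 4777 bases in full sunlight and 4777, 4774 and 4770 in low light. A difference between light conditions of at least 10% was seen for 29 members (14.5%), against 12.5% of the range.

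A few members differed in length past the test. Among the 15437 genes that averaged 10 CPM or more, limma called 412 (2.67%) at a Benjamini-Hochberg adjusted p under 0.05 with a difference of at least 10%, and 3.29% of the genes of the range. Of the 200 members 5 were called, 4 longer and 1 shorter in full sunlight, a share near both of these. TRINITY_DN10390_c0_g1 was the 1 that was shorter. Its implied length was 1021, 984 and 1012 bases in full sunlight and 1216, 1248 and 1239 in low light, a log2 difference of -0.31 (SE 0.02, limma adjusted p = 0.024). Its scaled counts overlapped, with 807, 782 and 721 in full sunlight and 787, 715 and 702 in low light. In FPKM the same gene had 60.1, 55.3 and 50.6 against 40.2, 35.9 and 36.3, which did not overlap, with a log2 ratio of 0.56. FPKM is scaled by the library total and not by the size factors. The log2 ratio of this gene was 0.07 in scaled counts and 0.27 in CPM, before any division by length.

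The longer ones were closer to the threshold. TRINITY_DN23049_c0_g2 had 722, 663 and 683 bases in full sunlight against 604, 601 and 608 in low light, a log2 difference of 0.18 (SE 0.03, limma adjusted p = 0.037). TRINITY_DN1203_c0_g1 had 1412, 1359 and 1376 bases against 1217, 1236 and 1201, a log2 difference of 0.17 (SE 0.01, limma adjusted p = 0.036). The 3 full sunlight libraries lay above low light in both.

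Fewer of these calls passed with a library left out, although the differences stayed about as large. Without full sunlight replicate 2, 1 of the 5 passed, that of TRINITY_DN10390_c0_g1, and without any other library none did (over all genes, 0 to 14 calls). The log2 difference of TRINITY_DN10390_c0_g1 was -0.32 to -0.29 in these fits, that of TRINITY_DN1203_c0_g1 0.16 to 0.18 and that of TRINITY_DN23049_c0_g2 0.15 to 0.20. With no centring on the library median, all 5 calls held, among 7 members and 426 genes called.

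Implied lengths also carried a library-wide offset, with a median over genes of 13.5, 5.47 and 6.69 bases in full sunlight and -5.50, -9.93 and -7.62 in low light. With this median offset removed, 21 of 15430 genes were called, among them 1 member, again TRINITY_DN10390_c0_g1, at a log2 difference of -0.32 (limma adjusted p = 0.040). Here too the other differences stayed close to their size, at 0.16 for TRINITY_DN1203_c0_g1 and 0.15 for TRINITY_DN23049_c0_g2, but with limma adjusted p-values of 0.065 and 0.134. The shortest member, TRINITY_DN10788_c0_g1, had a log2 difference of 0.14 before and of -0.0047 after that step.

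The steadiest count was not the steadiest length. TRINITY_DN5215_c0_g1 had 904, 701 and 752 bases in full sunlight and 572, 600 and 614 in low light, with all full sunlight values on top, a difference that missed the threshold (log2 difference 0.38, SE 0.10, limma adjusted p = 0.090). Its FPKM was 236 or less in full sunlight and 252 or more in low light. The CPM of this gene was thus higher in full sunlight, at a log2 ratio of 0.16, and its FPKM lower, at -0.23. In FPKM the members' log2 ratios ran from -0.23 to 0.57 with a median of 0.18. The CV of the FPKM had a median of 9.53% among members and 18.7% over the range. In CPM, which is also scaled by the library total but not by length, the members' median CV was 9.59%. The CV of the FPKM exceeded that of the scaled counts in 181 of the 200 members and 2189 of the 4070 genes of the range. The choice by low CV of scaled counts favours this difference. Genes steadiest in FPKM, by the same rule, included 44 of the members, and those steadiest in CPM included 31.

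**Figure D5:**
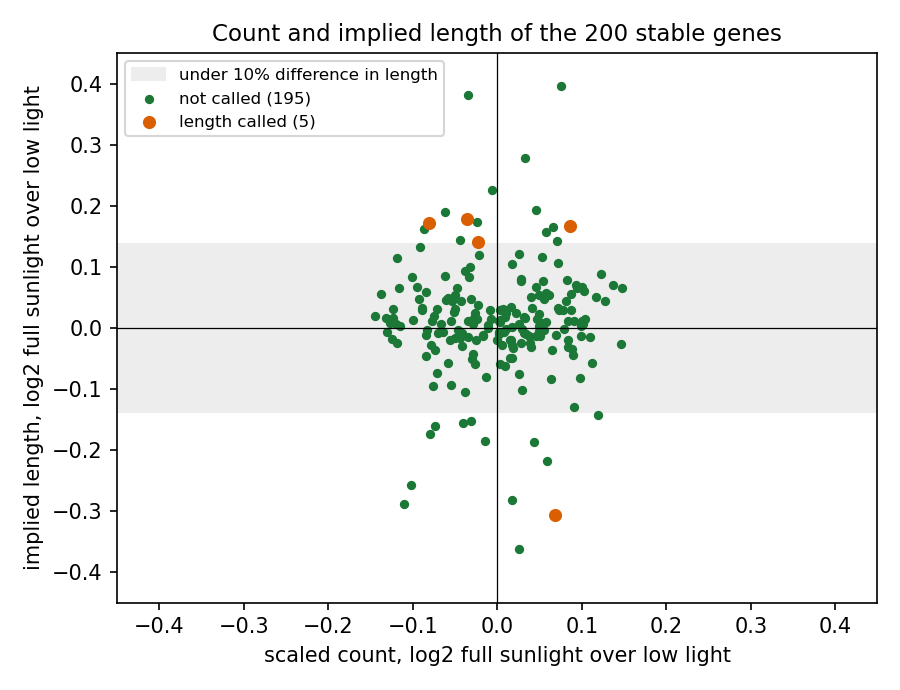
Each point is 1 of the 200 stable genes, with log2 full sunlight over low light of the scaled count (across) and of the implied length, centred on the library median (upwards), on equal scales; orange points are the 5 genes with a called length difference, and the band marks differences under 10%. Counts stay between -0.14 and 0.15, which the choice by low CV of these counts bounds, and lengths reach from -0.36 to 0.40. Over the whole range of genes, counts ran from -4.24 to 2.87 and lengths from -1.15 to 1.17. Nothing is therefore read from the contrast of the 2 spans.

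The assembler groups entries that share sequence into components, and the identifiers carry this grouping, which the rule did not use. Of the members 92 (46%) were alone in their component, close to the 47% of the range. Only TRINITY_DN2445_c0 held 2 members. TRINITY_DN2445_c0_g2 had 1403, 1405 and 1519 scaled counts in full sunlight and 1313, 1327 and 1444 in low light, and TRINITY_DN2445_c0_g1 had 1840, 1643 and 1765 against 1644, 1556 and 1683. In each gene the conditions overlapped, and the log2 ratios were 0.08 and 0.10.

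Other entries of the members' components had CVs somewhat below those of such entries in general. For 43 members the component held another entry with a mean of at least 10 CPM, and there were 49 such entries that are no members. Their median CV was 16.7% (quartiles 10.3% and 22.2%). All 8560 entries of that level in shared components, members included, had 17.8% (quartiles 12.4% and 26.8%). Whether this gap exceeds the spread of such sets was not tested. By the edgeR test 10 of the 49 (20.4%) were called, 5 higher and 5 lower in full sunlight, against 22.6% of the 8560. Reads can be split among the entries of a component.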

How the data were processed

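Leaf RNA-seq was analysed, with 3 libraries at each light level. A Trizol kit served for extraction and a NEBNext Ultra kit for library preparation, per the labels' protocols. The submitters' processing notes name RSEM but no version. The assembler's settings and any aligner: not given in the sources used here. Per gene, the authors deposited an estimated count, already rounded to whole numbers, and an FPKM value scaled by the authors to effective length and library size. Total counts of 14748349 to 15958899 limit the precision, and counting values of CV cover counting error only. Any 2 libraries of a condition differed by a chi-square of 9.93 or more per degree of freedom, so no library was taken for a repeat of another. The labels do not tie replicate numbers to shared plants or days, and same-numbered libraries did not deviate together (correlations 0.013, -0.035 and -0.024), so no pairing was used.

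Size factors came from 51100 genes above 0 in all libraries. The whole table was tested with edgeR 4.0.16 in R 4.3.3 (filterByExpr, TMM, quasi-likelihood F test, two-sided). Implied length, the count over FPKM and library total in the units that FPKM implies, was tested with limma 3.58.1 (trend and robust) on log2 values centred on each library's median, for genes averaging 10 CPM or more, two-sided. DESeq2 1.42.0 was an alternative. The p-values set a light difference against the spread between these libraries, estimated with information shared across genes. They do not cover the spread between plants, since the labels name no plant. Scripts were tested on simulated data. The members, the tests and the rule for named genes were set with earlier results of these data known. Named genes are the 10 members of lowest CV, 2 on each side of the cutoff, those of highest and lowest level, length and light ratio, up to 2 with called lengths in each direction, and members sharing a component.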

Additional observations from a re-analysis of the deposited data

How the results depend on the processing

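Of the 200 members, 154 to 193 were chosen again with TMM, upper-quartile scaling, the SD of log2(scaled count + 1), the range over the mean, or the counting variance subtracted. Fewer were chosen on CPM (31), on FPKM (44), by the mean CV within each condition (84), from 20 CPM (85) or with no limit on level (67); the last 2 admit more genes for the same 200 places. Leaving out each library gave 124 to 148. The members' median log2 light ratio was 0.20 with library size, 0.050 with upper quartile, 0.18 in FPKM, and 0.10 or 0.071 with library totals lacking the 100 or 1000 most abundant genes (added after seeing the data); without each library it was -0.00027 to 0.0087. Non-overlapping members numbered 136 with library size and 105 in FPKM, against 29. Over the range, 51.8% of genes did not overlap in scaled counts. With library size, 36% of the range were higher in full sunlight in this way and 19.1% lower. The share over the range in FPKM is not given here, so nothing is read from the 105. The difference of the members' share of counts was 0.220 to 0.314 percentage points without each library, against 0.268. The median SD in the library left out was 0.172, and 0.173 with TMM and 0.178 with library size. The edgeR calls were 6173 over all genes and 2374 to 8976 without each library, and in the level range 1135 and 486 to 1520. In none of the 11 alternative fits was a member called, which the choice of members favours. With library size, 17 of the 200 members had an unadjusted edgeR p under 0.05, against 2043 of the 4070 genes of the range. No light response of the members is read from the 17. The replicate block gave 4625 edgeR calls and 0 implied length calls. Implied length calls were 412 over all genes: 426 with no centring, 1063 with no minimum difference, 96 at 25%, 215 from 50 CPM, 21 with the library offset removed (added after seeing the data) and 0 to 14 without each library. Among members these were 7, 14, 0, 10, 1 and 0 to 1, against 5, and 0 with the block. The cause of these changes was not tested. Of the 27 named genes, none moved beyond its replicate spread with TMM, 11 did with upper quartile, 24 in FPKM and 27 with library size. With any library left out none did. Leaving out 1 of 3 libraries can hardly move a group mean that far, so nothing is read from this. With 3 libraries per condition, differences near or below the median edgeR SE of 0.13 (log2) are not resolved, and larger ones may not be either.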
